A study of Mus musculus with 11 samples.

Results

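The contacts of a viewpoint placed around the En1 promoter were followed across a captured stretch of mouse chromosome 1. The maps came from 3 embryonic tissues and from forelimb that carries a stop cassette. The viewpoint was a pair of neighbouring 10 kb bins that cover 122.49 to 122.51 Mb of chromosome 1 (mm9) and meet at 122.50 Mb. By the coordinates used to choose them, the first holds the start of En1 and the second the rest of the gene. Every bin pair with at least one of these bins was taken, which gave 839 of the 88410 bin pairs of each map. The gene models of mm9 were not used here, so the placement of En1 in these bins was not checked against an annotation of that build.

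Capture Hi-C was used, in which crosslinked chromatin is digested (here with DpnII), religated and enriched with baits for one region, so that a sequenced ligation product stands for a meeting of its 2 ends in the nucleus. The tissues were wild-type forelimb, wild-type forebrain and wild-type midhindbrain boundary (3 libraries each, the last called midhindbrain here) and forelimb of mutants labelled with a stop cassette insertion (2 libraries), all at embryonic day 9.5. The strain field of all 11 libraries names the cross c57bl6.J X 129S6.sv. In wild-type forelimb, library titles also hold the tag CD1, so for that map strain, tissue and genotype cannot be told apart. The labels do not give the position of the cassette, whether 1 or both alleles carry it, or how many embryos were pooled.

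En1 encodes a homeobox transcription factor. In the embryo it is known for patterning the midbrain and hindbrain, where it is expressed around the boundary between them, and for setting the ventral identity of the limb, where it is expressed in the ventral ectoderm. Genes of this kind are often surrounded by long non-coding intervals, and distal elements in such intervals act on the promoter within domains of frequent contact that are separated by boundaries. The title of the series ties malformation of the limb through En1 to loss of Maenli, a long non-coding RNA. Forelimb and forebrain tissue hold many cells that do not express En1, and a map averages over all of them.

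The promoter itself is shown because the viewpoint was placed around it, and because a cut site of the restriction enzyme lies in it. The near end of a contact is known only to a 10 kb bin, so no contact can be assigned to these bases. The 250 bases before the start of En1 are given 5′ to 3′ from RefSeq (GRCm38.p6, chr1:120602237-120602486, plus strand), a build whose coordinates differ from those of the maps. Capitals mark the matches to GATC, the recognition sequence of DpnII, and to CCAAT, a promoter box, on either strand.
En1 promoter: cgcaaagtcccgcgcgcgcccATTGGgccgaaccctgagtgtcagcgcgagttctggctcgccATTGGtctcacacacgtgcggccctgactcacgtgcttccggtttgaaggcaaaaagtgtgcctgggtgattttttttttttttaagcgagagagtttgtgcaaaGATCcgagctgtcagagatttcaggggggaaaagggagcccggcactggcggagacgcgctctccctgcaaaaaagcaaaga
The window held 1 GATC, at positions 169 to 172, and 2 CCAAT boxes, both on the minus strand and therefore written ATTGG, at positions 22 to 26 and 64 to 68. Of the 32851 RefSeq promoter windows of the same length, 41.9% held a GATC and 33.8% a CCAAT, with 2 or more CCAAT in 10.1%. Its GC content was 56.0% and it held 19 CpG dinucleotides. These matches are a description of the letters in the window.

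In the gene order of GRCm38.p6, En1 sits at the edge of a long non-coding interval. The neighbour with lower coordinates is the non-coding Gm41939, followed by Marco, which encodes a scavenger receptor of macrophages, then Gm46154 and C1ql2, which encodes a secreted C1q-like protein. On the other side the table lists 9 long non-coding RNA genes, from Gm34352 to Gm41940, before the first protein-coding gene, Insig2, an endoplasmic reticulum protein that restrains cholesterol synthesis. Their positions in the bins of the maps were not used here, because the builds differ.

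The maps held 7662227 to 9523316 contacts each, of which 82372 to 103141 involved the viewpoint. Contacts at 30 kb or more, on which all values below rest, numbered 65688 in forebrain, 69477 in wild-type forelimb, 63372 in midhindbrain and 56414 in stop-cassette forelimb. No bin pair of the viewpoint was at 0. Both bins were covered better than the median bin of their map, ranking 34th to 59th (first bin) and 98th to 146th (second bin) of 420. Replicates had been merged into 1 map per group before deposit, so no spread between libraries could be measured. All intervals are 95% intervals that cover counting error only, and a test here sets the reads of one merged map against those of another and does not test the conditions.

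In all 4 maps the contacts of En1 pointed to one side. The viewpoint met sequence with higher coordinates (here called the right) far more often than sequence at the same distance on the left. Its strongest contact was a sharp peak 580 kb to the right, at chr1:123070001-123080000. Beyond this peak contacts stayed above expectation up to the boundary near chr1:123470001 and were fewer past it. The maps differ in depth, so they are compared here relative to the expectation of each map. On that scale forebrain had the highest peak and the lowest value in the stretch beyond it, and wild-type forelimb was above both brain maps at 100 to 390 kb. Midhindbrain was the highest next to the gene and in the stretch beyond the peak taken as a whole, though not in every part of that stretch. The stop-cassette map had the same peak at a lower height. Its left side and its segment past 123470001 were less depleted than those of wild-type forelimb.

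**Figure D1:**
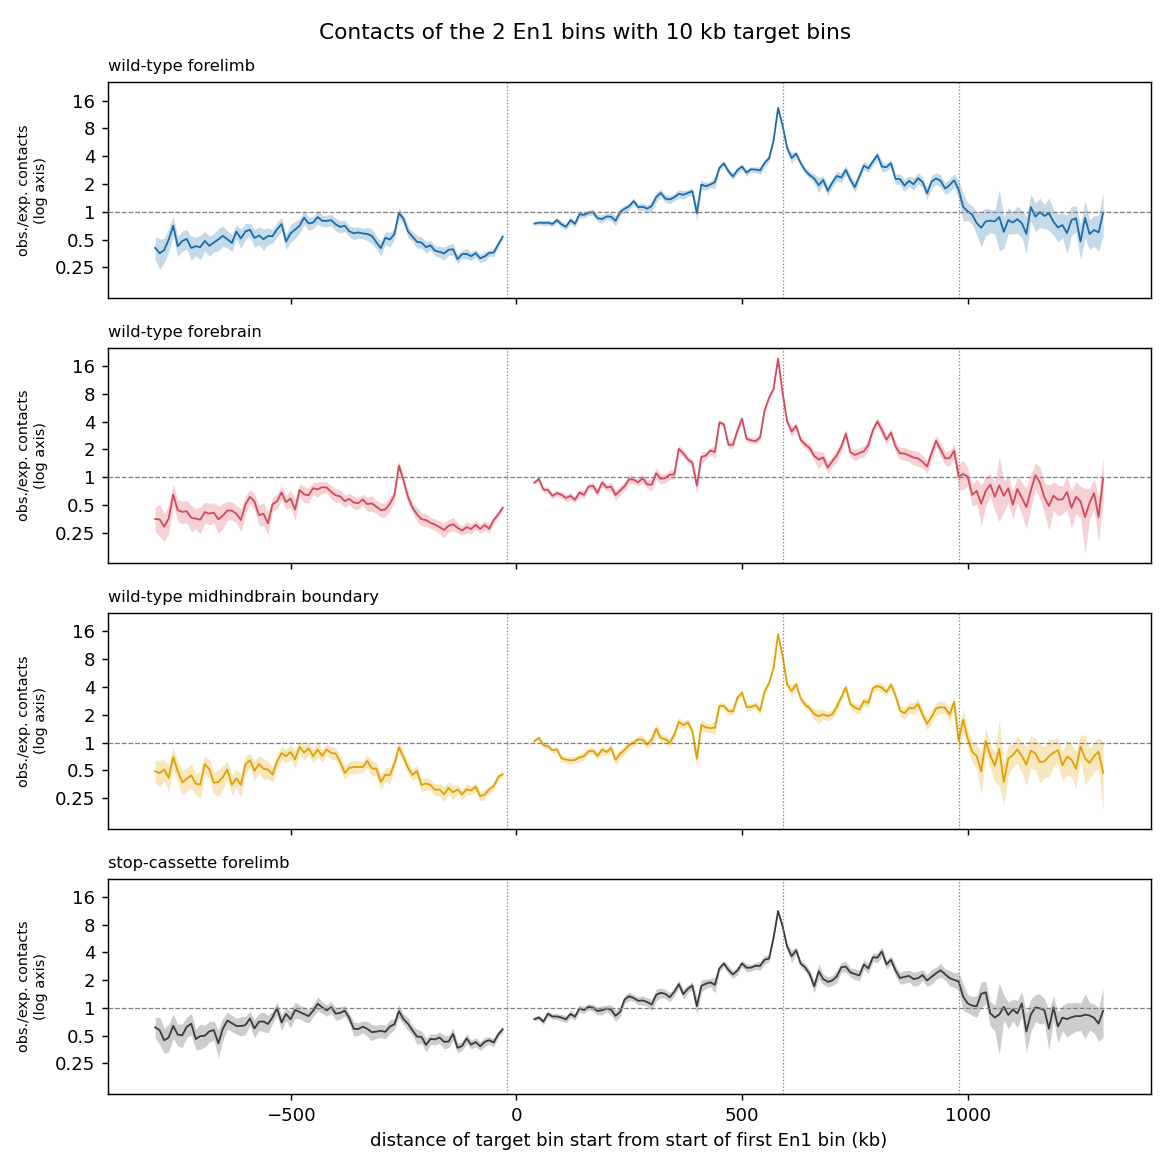
Observed over expected contacts of both En1 bins together (vertical log axis) against the distance of each 10 kb target bin from the start of the first En1 bin in kb, from -800 to 1300 kb, one panel per map. Lines are values and shading the 95% Poisson interval, the dashed line marks 1 and the dotted lines mark the domain boundaries at 122470001, 123080001 and 123470001. The peak at 580 kb reaches 19.2 in forebrain, 13.4 in wild-type forelimb, 15.0 in midhindbrain and 11.2 in stop-cassette forelimb, and most of the left side lies below 1.

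The far peak was the feature with the highest values. An observed over expected ratio is the raw contact count divided by the count expected from the mean balanced signal at that distance and the balancing factors of both bins, so 1 is the average of that map at that distance. With 123070001-123080000 the En1 bins had 2441 contacts in wild-type forelimb, 13.4 times the expectation (Poisson interval 12.8 to 13.9). The count was 3888 in forebrain, 19.2 times the expectation (18.6 to 19.8). Midhindbrain had 2617, or 15.0 times (14.4 to 15.6), and stop-cassette forelimb had 1601, or 11.2 times (10.7 to 11.8). The order was therefore forebrain, midhindbrain, wild-type forelimb, stop-cassette forelimb, and no interval overlapped another.

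Set against the whole region, this contact led every map. Among the bin pairs with an expected count of 20 or more at 30 kb or more (40403 to 43322 per map), the pair of the first En1 bin with 123070001 had the highest observed over expected ratio in all 4 maps, at 21.2 in forebrain, 15.0 in wild-type forelimb, 16.6 in midhindbrain and 12.9 in stop-cassette forelimb. The second En1 bin ranked 2nd in the 3 wild-type maps, at 11.3 (forelimb), 16.9 (forebrain) and 13.1 (midhindbrain), and 4th in the stop-cassette map, at 9.38. Both ends lie next to boundaries of the insulation score, since a minimum was placed at 122470001 in all 4 maps and another at 123080001 in 3 of them and at 123090001 in forebrain.

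The near end of the contact was centred on the bin that holds the start of En1. With the far end held at 123070001, the ratio in wild-type forelimb was 11.1 for the bin 122480001, 15.0 for the first En1 bin, 11.3 for the second and 9.15 for 122510001. It was 6.15 at 122470001, the bin nearest to the boundary, and 2.33 at 122440001. In forebrain the same scan gave 12.3, 21.2, 16.9 and 11.7 around the gene and 4.82 at 122470001. All 4 maps were highest at the first En1 bin, and in each of them the value at the boundary bin was less than the value on the other side of the gene at 122510001.

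**Figure D2:**
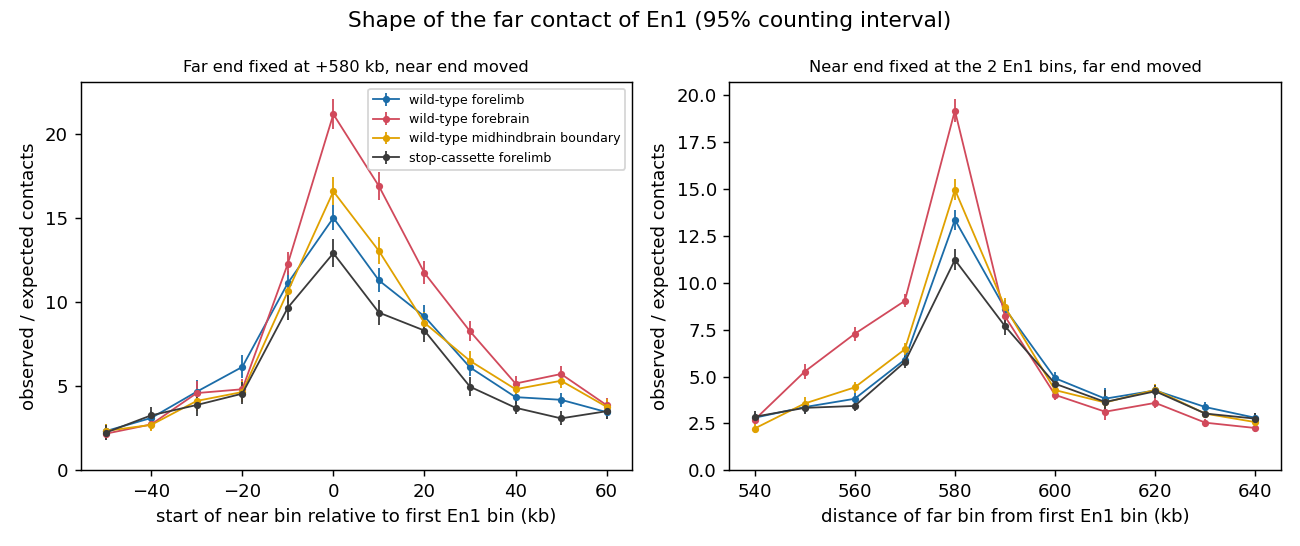
Observed over expected contacts of the far contact in the 4 maps, with 95% Poisson intervals. On the left the far end is held at 580 kb and the near bin is moved from -50 to 60 kb around the first En1 bin, and on the right the near end is held at both En1 bins and the far bin is moved from 540 to 640 kb. The left curves all peak at 0 kb, and on the right the forebrain curve stands above the others from 550 to 580 kb and below them from 600 to 640 kb.

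The far end differed in shape between maps. On the side towards En1, the bin 123050001-123060000 had 727 contacts (3.81 times the expectation) in wild-type forelimb, 1547 (7.28 times) in forebrain, 836 (4.42 times) in midhindbrain and 537 (3.43 times) in stop-cassette forelimb. Forebrain was 1.91 times wild-type forelimb there (1.75 to 2.09) and 1.65 times midhindbrain (1.51 to 1.79). One bin past the peak, at 123080001-123090000, this order was gone: the ratios were 8.21 in forebrain, 8.62 in wild-type forelimb, 8.70 in midhindbrain and 7.68 in stop-cassette forelimb, and the interval of forelimb over forebrain (0.977 to 1.13) included 1. At 123120001-123130000 forelimb was 1.33 times forebrain (1.19 to 1.48). The forebrain peak was thus extended towards the gene and not away from it. These flanking bins were picked after their values were seen.

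Between the forelimb maps the difference was larger in the peak bin than in the next bin towards En1, 123060001. The ratio of stop-cassette over wild-type forelimb was 0.840 at 123070001 (0.788 to 0.895) and 0.891 at 123080001 (0.821 to 0.967). At 123060001 it was 0.978 (0.906 to 1.06) and at 123050001 0.900 (0.803 to 1.01), and both intervals include 1. The interval at 123050001 overlapped that of the peak bin, so these bins were not shown to differ. In the test over all 58878 bin pairs of this comparison the En1 pairs with 123070001 were not called (exact binomial adjusted p = 0.15 and 0.16 for the first and second En1 bin). The 50 kb window of the peak, 123050001-123100000, had 7135 contacts in wild-type forelimb and 4897 with the stop cassette, or 7.16 and 6.42 times the expectation (0.896-fold, stop-cassette over wild type). Its exact binomial adjusted p over all windows was 9.3e-07, and it missed the call described below on the size of the change.

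Smaller maxima stood on both sides of the peak. Within the domain, 122940001-122950000 at 450 kb had 1102 contacts in forebrain (3.92 times the expectation), 811 in wild-type forelimb, 642 in midhindbrain (2.49 times) and 545 in stop-cassette forelimb (2.69 times). At 122990001-123000000, 500 kb away, forebrain had a ratio of 4.31, midhindbrain 3.48, wild-type forelimb 3.09 and stop-cassette forelimb 3.04. Forebrain was the highest map at both, as at the peak itself. Forelimb was 0.764 times forebrain at 450 kb (0.697 to 0.837) and 0.718 times at 500 kb (0.657 to 0.786).

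Beyond the peak the leading map was another. At 123110001-123120000, 620 kb away, the ratios were 3.59 in forebrain, 4.26 in wild-type forelimb, 4.29 in midhindbrain and 4.21 in stop-cassette forelimb, and forebrain was the lowest. The maximum at 123220001-123230000, 730 kb away, reached 3.97 in midhindbrain against 2.96 in forebrain, while the wild-type limb had 2.84 and the stop-cassette limb 2.81. At 123290001-123300000, 800 kb away, the intervals of the 3 wild-type maps overlapped, with 4.01 in forebrain and 4.11 in midhindbrain, and stop-cassette forelimb had 3.51. The next bin, 123300001-123310000, was the second highest maximum of the stop-cassette map, with 247 contacts and a ratio of 4.09, against 229 contacts and 3.09 in wild-type forelimb (1.33-fold, 1.10 to 1.59). At 123290001 stop-cassette over wild-type forelimb was 0.856 (0.726 to 1.01), which includes 1, and in the stop-cassette map the intervals of both bins overlapped. At 123320001-123330000 midhindbrain was again the highest, at 4.23 against 3.05 in forebrain, while the wild-type limb had 3.36 and the stop-cassette limb 3.32.

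Few target bins with 2-fold or more over the expectation lay on the left. Wild-type forelimb had 46 such bins of 414 (11.1%), forebrain 33 (7.97%), midhindbrain 51 (12.3%) and stop-cassette forelimb 50 (12.1%). Over all viewpoints of the same size in the region, 2.91%, 2.96%, 3.77% and 2.19% of the target bins reached 2-fold in these maps. Of the En1 bins counted, 14 to 15 per map lay inside the domain and 17 (forebrain) to 35 (midhindbrain and stop-cassette forelimb) in the next one. The left side had 0, 1, 2 and 1, in the far part where as few as 5.52 contacts were expected per bin. At a limit of 3-fold the bins numbered 17, 16, 19 and 15, against 0.31%, 0.4%, 0.423% and 0.266% over all viewpoints (wild-type forelimb, forebrain, midhindbrain, stop-cassette forelimb). At 1.5-fold they numbered 67, 63, 67 and 72, against 10.7%, 11.6%, 11.4% and 10.4%. The 4 maps shared 31 of the 56 bins that reached 2-fold in any map, and those 31 are also the bins shared by the 3 wild-type maps.

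The En1 viewpoint ranked 8th, 24th, 16th and 3rd from the highest of 209 viewpoints in this count, in the order wild-type forelimb, forebrain, midhindbrain and stop-cassette forelimb. A viewpoint had 4 to 8 such bins at the median of a map. En1 was therefore among the viewpoints with many enriched targets but not the one with the most, for which the count ran from 53 to 83.

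Step by step from the gene to the right, contacts first lay below expectation, then lay above it, and the tissues changed order on the way. From 122530001 to 122590000, next to the gene, the ratio was 0.759 in wild-type forelimb (0.741 to 0.777), 0.795 in forebrain, 0.973 in midhindbrain (0.952 to 0.994) and 0.783 in stop-cassette forelimb. Midhindbrain was the highest here. At 100 to 190 kb wild-type forelimb had 0.838 (0.817 to 0.860), against 0.676 in forebrain and 0.710 in midhindbrain, and stop-cassette forelimb had 0.891. At 200 to 290 kb the values were 1.04, 0.828, 0.892 and 1.10, and at 300 to 390 kb 1.48, 1.29, 1.31 and 1.49 (wild-type forelimb, forebrain, midhindbrain, stop-cassette forelimb). In these 3 bands both forelimb maps stood above both brain maps, and no interval of a forelimb map overlapped one of a brain map.

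At 400 to 490 kb this grouping ended. Forebrain had 2.52 (2.45 to 2.59), wild-type forelimb 2.43 (2.36 to 2.50), stop-cassette forelimb 2.27 and midhindbrain 2.01 (1.94 to 2.07). In the band of the peak, 500 to 590 kb, forebrain stood apart at 6.15 (6.05 to 6.25) against 4.75, 4.88 and 4.45 in wild-type forelimb, midhindbrain and stop-cassette forelimb. Past the boundary forebrain turned from the highest to the lowest map: at 700 to 790 kb it had 2.09, against 2.56 in wild-type forelimb, 2.79 in midhindbrain and 2.57 in stop-cassette forelimb. Midhindbrain did not lead in each band there. At 600 to 690 kb wild-type forelimb was the highest, at 3.08 (2.99 to 3.17) against 2.89 in midhindbrain (2.80 to 2.97). At 900 to 990 kb stop-cassette forelimb had 2.16 and midhindbrain 2.07, with overlapping intervals. From 123490001 to 123590000, past the boundary at 123470001, all 3 wild-type maps were below 1, at 0.823 (forelimb), 0.735 (forebrain) and 0.753 (midhindbrain), and the stop-cassette map was at 1.04 (0.950 to 1.14).

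Both En1 bins had the same order of segments, with differences in level. In the next domain, 123080001-123470000, the first bin had 3.28 times the expected contacts in wild-type forelimb and the second 2.42 times. The same values were 2.75 and 2.14 in forebrain, 3.49 and 2.44 in midhindbrain, and 3.19 and 2.44 in stop-cassette forelimb. Inside the domain the first bin was above the second in forebrain (1.36 and 1.27) and in midhindbrain (1.30 and 1.19), and in both forelimb maps the intervals of the bins overlapped. On the left, from 30 kb to 1 Mb, the second bin was the more depleted in each map, at 0.448 against 0.485 in wild-type forelimb and 0.391 against 0.441 in forebrain. In midhindbrain it was 0.399 against 0.458 and in stop-cassette forelimb 0.531 against 0.580.

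Contacts at 30 kb or more were counted inside the domain of En1, here chr1:122470001-123080000, the interval between the insulation minima that flank the gene in wild-type forelimb. The domain held 55.5% of them in forebrain (Wilson interval 55.1 to 55.9), 51.1% in midhindbrain (50.7 to 51.5), 50.7% in wild-type forelimb (50.3 to 51.1) and 46.8% in stop-cassette forelimb (46.4 to 47.2). Stop-cassette forelimb was below wild-type forelimb, with a difference of -3.94 percentage points (Newcombe interval -4.50 to -3.39). Wild-type forelimb was below forebrain, with a difference of -4.79 points (-5.32 to -4.25), while its difference from midhindbrain, -0.41 points (-0.95 to 0.13), included 0. These shares are not divided by the expectation of each map. Relative to that expectation the forelimb maps did not differ in the domain. It stood at 1.28 times with the stop cassette (1.26 to 1.29) and 1.27 times in wild type (1.26 to 1.28).

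The higher share of forebrain rested on the last stretch before the far boundary. When the far end of the domain was moved in by 50 kb, which removes the peak, the shares were 41.6% in forebrain, 42.7% in wild-type forelimb, 41.9% in midhindbrain and 39.7% in stop-cassette forelimb, so the order of forelimb and forebrain turned. The stop-cassette map had the lowest share with both ends.

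The next domain to the right took 18.1% of the contacts in stop-cassette forelimb, 16.9% in forebrain, 21.1% in midhindbrain and 19.4% in wild-type forelimb. Midhindbrain exceeded forebrain there by 4.17 points (3.74 to 4.60) and wild-type forelimb exceeded forebrain by 2.50 points (2.09 to 2.91). In the order wild-type forelimb, forebrain, midhindbrain and stop-cassette forelimb, the next domain was at 2.90, 2.46, 3.01 and 2.83 times the expectation, more than the domain of the gene itself (1.27, 1.33, 1.26 and 1.28 times), whose bins include those close to the gene. The segment on the left, chr1:121910001-122470000, is as near to the gene as its own domain but took, in the same order, 17.7%, 16.4%, 16.4% and 19.5%, or 0.468, 0.417, 0.428 and 0.556 times the expectation. The segment past 123470001 took 3.02% (forebrain) to 4.31% (stop-cassette forelimb).

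**Figure D3:**
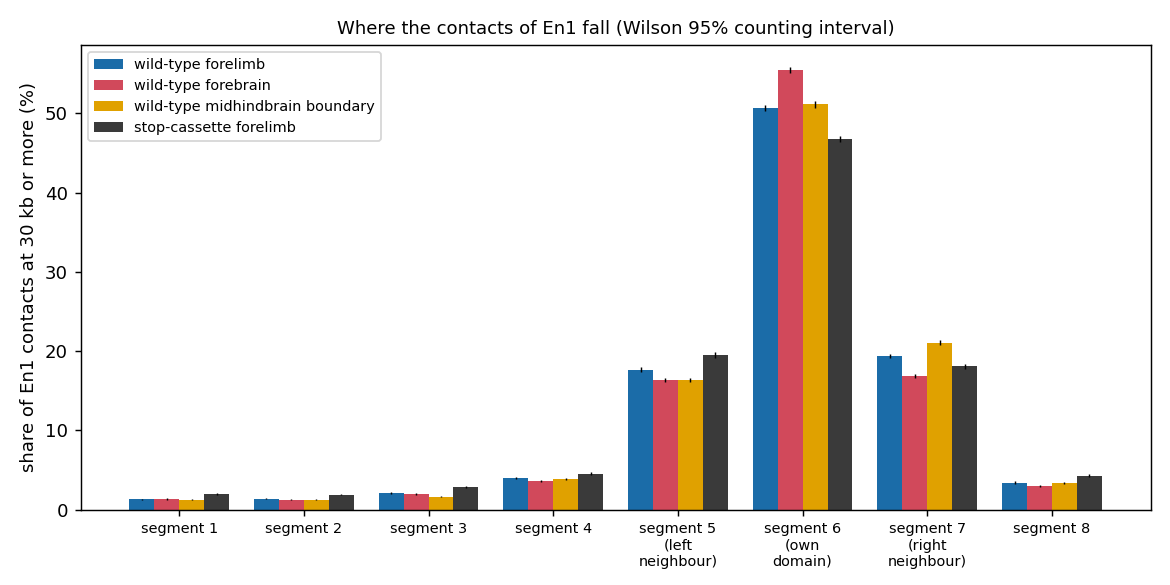
Share of the contacts of the En1 bins at 30 kb or more (vertical axis, percent) that fall in each of the 8 segments between the insulation boundaries of wild-type forelimb, in order of position, with Wilson 95% intervals. Bars are the 4 merged maps. The own domain holds 46.8% to 55.5%, highest in forebrain and lowest in stop-cassette forelimb, and the left neighbour 16.4% to 19.5%.

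The lean to the right was measured at matched distances, from 30 kb to 1 Mb on both sides, so that decay with distance plays no part. Wild-type forelimb had 49924 contacts on the right and 14779 on the left, a right share of 77.2% (Wilson interval 76.8 to 77.5). The share was 79.1% in forebrain (78.8 to 79.5), 78.9% in midhindbrain (78.6 to 79.2) and 73.9% in stop-cassette forelimb (73.5 to 74.2). Forebrain and midhindbrain could not be told apart (difference -0.24 points, -0.69 to 0.22), and wild-type forelimb was below both. Its difference from forebrain, -1.98 points (-2.43 to -1.52), was the 9th lowest of the 219 viewpoints described next (5th percentile -1.92). Its difference from midhindbrain, -1.74 points (-2.20 to -1.28), was the 48th lowest (5th percentile -3.07).

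No other viewpoint of the region had a higher right share in any of the 4 maps: En1 ranked 1st of 219 viewpoints of 20 kb in each. The median of the other viewpoints was 45.5% to 46.3%, their lowest value 20.8% to 29.2% and their highest 73.4% to 77.9%. The viewpoints step by 10 kb, so those next to the En1 viewpoint share a bin with it. Viewpoints 20 kb away share no bin with it and were nearly as high. In wild-type forelimb they had 74.9% (to the right) and 72.0% (to the left), and in forebrain 74.7% and 73.7%. A high right share was therefore not particular to the En1 bins. With the balanced signal in place of raw counts the shares of En1 were 75.9%, 77.4%, 77.3% and 72.7%, and it again ranked 1st in each map.

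**Figure D4:**
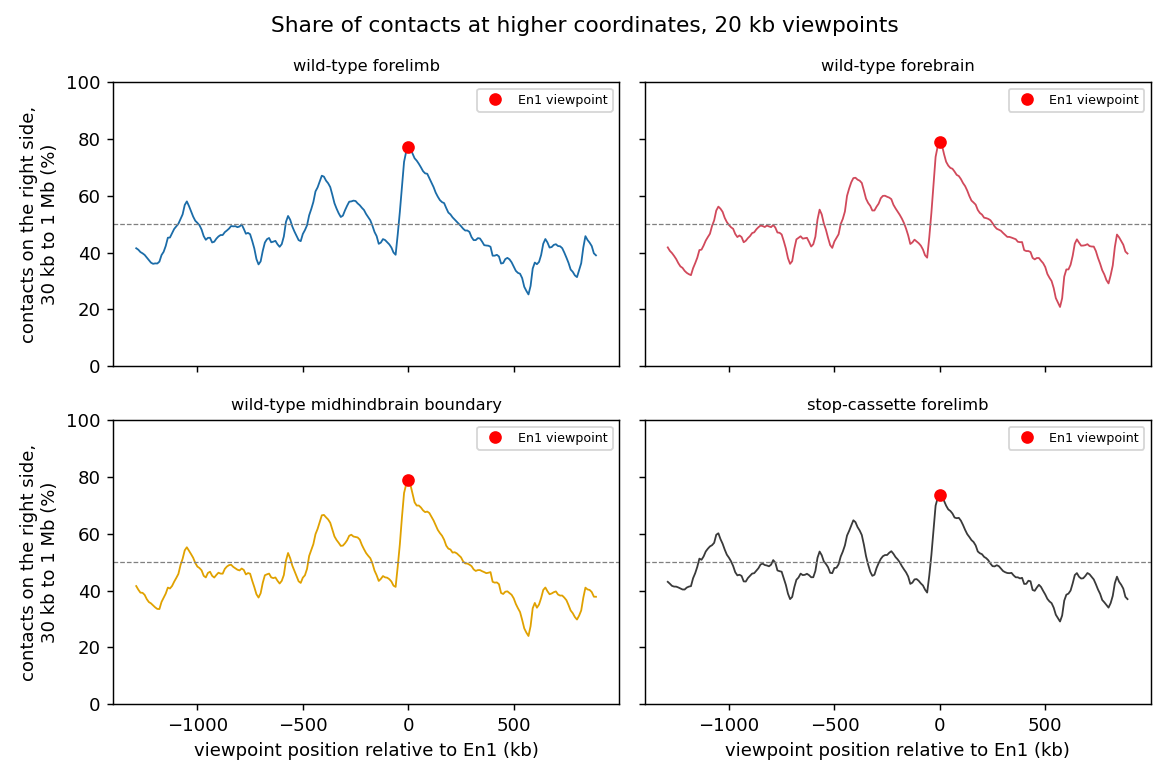
Share of contacts at 30 kb to 1 Mb that lie at higher coordinates (vertical axis, percent) for every 20 kb viewpoint with 1 Mb captured on both sides, against the position of the viewpoint relative to En1 in kb, one panel per merged map. The dashed line marks 50% and the red point is the En1 viewpoint, at 77.2%, 79.1%, 78.9% and 73.9%, the highest of 219 in each map.

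The left side of En1 was depleted in all maps and less so in stop-cassette forelimb. Over all 227 target bins on the left the summed ratio was 0.513 in wild-type forelimb (0.506 to 0.521), 0.462 in forebrain (0.455 to 0.470), 0.471 in midhindbrain (0.463 to 0.478) and 0.625 in stop-cassette forelimb (0.616 to 0.635). Of these bins, 197, 202, 202 and 154 lay below 1 in the same order. The same count for other viewpoints is not given, so this count alone does not set En1 apart. One local maximum on the left, at 122230001-122240000, 260 kb away, was seen after the profiles were drawn: it reached 1.34 in forebrain (lower bound 1.18), against 0.968 in wild-type forelimb, 0.885 in midhindbrain and 0.925 in stop-cassette forelimb.

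Stop-cassette against wild-type forelimb asks whether the cassette goes with another contact profile of En1 in the limb. In 50 kb windows the observed over expected ratio of the stop-cassette map was above that of wild-type forelimb in all 45 windows on the left, with a median log2 ratio of 0.26. The raw count was not higher in all of them, since the maps differ in depth, and every fold below is a fold of observed over expected ratios. Inside the domain it was higher in 6 of 10 windows, with a median of 0.05. To the right of the domain it was higher in 18 of 27, with a median of 0.11. The summed left ratio was 1.22 times that of wild-type forelimb, and by this measure, chosen after the values were seen, En1 ranked 2nd from the highest of 319 viewpoints with 1 Mb captured on the left. Their median was 1.000 and their range 0.895 to 1.22. On the right the ratio was 0.999, with rank 198 of 319. These viewpoints step by 10 kb, so neighbours share a bin. The right sum joins parts that went different ways. The peak was lower in the stop-cassette map, while the segment past 123470001 was less depleted. That segment was at 0.879 times the expectation (0.844 to 0.915), against 0.786 in wild-type forelimb (0.755 to 0.818). A high rank on the left was not particular to this comparison. The left ratio was 1.11 for wild-type forelimb over forebrain (rank 6 of 319) and 1.09 for wild-type forelimb over midhindbrain (rank 10). For midhindbrain over forebrain it was 1.02 (rank 75).

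Of the 82 windows of En1, 8 (9.76%) passed the call (exact binomial adjusted p under 0.05 over 17137 windows, and a log2 ratio of at least 0.32 in size), all higher in the stop-cassette map. Over the whole map 6.19% of windows passed: in the stop-cassette map 4.17% were higher and 2.02% lower. Called windows were 7 on the left and 1 at 123500001-123550000, past the last boundary, where 265 contacts stood against 230 (1.38-fold, exact binomial adjusted p = 0.0062). The largest fold was at 120550001-120600000, with 171 against 120 contacts (1.53-fold, exact binomial adjusted p = 0.0068). The lowest adjusted p was at 121950001-122000000, with 653 against 592 contacts and ratios of 0.819 and 0.589 (1.39-fold, exact binomial adjusted p = 1.5e-06). None of the 82 windows passed when the variance was inflated to the spread over all windows of the comparison (3.34 times counting error), while 0.0467% of all windows did. Without it 29 (35.4%) had an unadjusted exact binomial p under 0.05, against 24.7% of all windows. With the test kept to windows from 30 kb to 1 Mb, 2 of 38 En1 windows (5.26%) were called, against 9.46% of all windows. Within that range the En1 share was thus below that of the map.

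The right share, drawn from the same contacts, differed by -3.30 points (-3.80 to -2.80) between the stop-cassette and the wild-type forelimb map. This placed En1 17th from the lowest of 219 viewpoints, above their 5th percentile of -4.21. Genotype and the strain tag of the wild-type forelimb map cannot be told apart in this comparison.

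**Figure D5:**
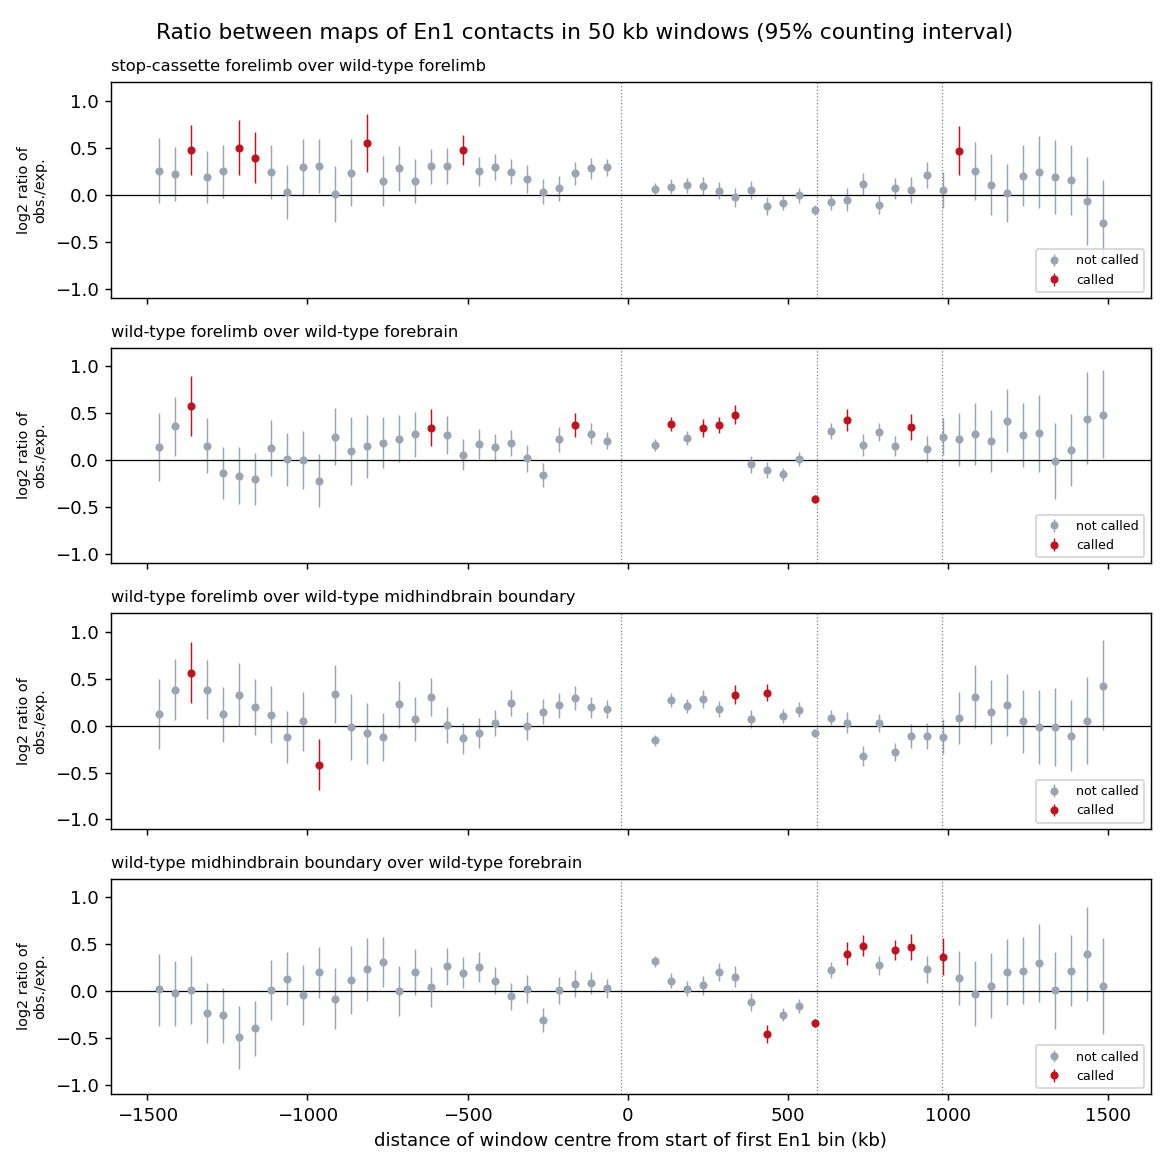
Log2 ratio between 2 maps of observed over expected contacts of En1 in 50 kb windows (vertical axis) against the distance of the window centre from the start of the first En1 bin in kb, from -1500 to 1500 kb, one panel per comparison, with 95% counting intervals. Red points passed an exact binomial adjusted p under 0.05 and a log2 ratio of at least 0.32 in size, and dotted lines mark the boundaries at 122470001, 123080001 and 123470001. In the first panel every left point lies above 0, and in the panels with forebrain as the reference the window of the peak is red and below 0.

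Wild-type forelimb against forebrain compared a limb with a brain tissue. Of the 82 windows 10 (12.2%) were called against 1.86% over the map, 9 higher and 1 lower in forelimb. The map had 1.04% higher and 0.823% lower. Inside the domain 4 of the 10 windows were called, all higher in forelimb and all between 110 and 360 kb from the gene. The largest fold among them was at 122800001-122850000, with 1939 contacts in forelimb and 1324 in forebrain, or 1.44 and 1.03 times the expectation (1.40-fold, exact binomial adjusted p = 4e-18). At 122600001-122650000 it was 3191 against 2452 contacts (1.31-fold, exact binomial adjusted p = 3.3e-20). The windows 122700001 and 122750001 were 1.27-fold and 1.30-fold higher.

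The single lower call was the window of the peak, 123050001-123100000. It had 7135 contacts in forelimb and 10229 in forebrain, ratios of 7.16 and 9.55 (0.750-fold, exact binomial adjusted p = 1e-74). Further right, 123150001-123200000 was 1.35-fold higher in forelimb, with 1359 against 985 contacts (exact binomial adjusted p = 3.5e-10), and 123350001-123400000 was 1.28-fold higher. On the left 3 windows were called, led by 121100001-121150000 with 211 against 133 contacts (1.49-fold, exact binomial adjusted p = 0.0078). With the inflated variance 6 of the 10 windows passed, namely the 4 inside the domain, the peak and 123150001, while 0.280% of all windows did.

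Wild-type forelimb against midhindbrain gave 4 called windows (4.88%), close to the 4.39% of the whole map. Of these, 3 were higher in forelimb and 1 lower, against 2.32% and 2.07% of all windows. This closeness held only with the minimum fold. With no minimum fold 19 of the 82 windows (23.2%) passed, against 11% of all windows. At 122900001-122950000 forelimb had 2263 contacts and midhindbrain 1603, ratios of 2.24 and 1.75 (1.28-fold, exact binomial adjusted p = 1.4e-11). At 122800001-122850000 it had 1939 against 1403 (1.26-fold, exact binomial adjusted p = 8.1e-09). The window 121100001-121150000 was 1.48-fold higher, with 211 against 128 contacts (exact binomial adjusted p = 0.0073), and 121500001-121550000 was the lower one, with 201 against 247 (0.750-fold, exact binomial adjusted p = 0.030). With the inflated variance 122900001 alone passed, 1 of 82, while 0.537% of all windows did. The window 121100001-121150000 was called in all 3 comparisons that include wild-type forelimb and not in the one between brain maps, and these comparisons share the wild-type forelimb map. Its ratios were 0.549 in forebrain, 0.820 in wild-type forelimb, 0.553 in midhindbrain and 1.14 in stop-cassette forelimb.

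Midhindbrain against forebrain had 8 called windows (9.76%) against 2.32% over the map, where 1.3% were higher and 1.02% lower in midhindbrain. The lower ones were 122900001-122950000, with 1603 contacts in midhindbrain and 2381 in forebrain (0.728-fold, exact binomial adjusted p = 5.6e-20), and the window of the peak, with 7292 against 10229 (0.791-fold, exact binomial adjusted p = 2.5e-49). Of the 6 higher ones, 5 lay in the 123150001-123500000 stretch. The largest fold among those 5 was at 123200001-123250000, with 1564 against 1126 contacts, ratios of 2.89 and 2.07 (1.40-fold, exact binomial adjusted p = 8.6e-15). Those at 123300001 and 123350001 were 1.35-fold and 1.38-fold higher. The sixth, 124200001-124250000, had 137 against 103 contacts (1.51-fold, exact binomial adjusted p = 0.040). With the inflated variance 6 of the 8 passed, while 0.362% of all windows did.

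Between the brain maps the called windows lay on both sides of the boundary at 123080001: midhindbrain was lower in 2 windows before or at it and higher in 5 behind it. Both comparisons with forebrain as the reference share the forebrain map, in which the peak was highest.

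At the resolution of single bin pairs the call asked for an adjusted p under 0.05 and a 2-fold change, and only 1 En1 pair passed. In stop-cassette forelimb the bin 121100001-121110000 met the second En1 bin 48 times, against 15 times in wild-type forelimb (exact binomial adjusted p = 0.049, log2 ratio 1.71, 1 of 715 En1 pairs tested). Over the map 0.0187% of bin pairs were called in that comparison. The first En1 bin had no call with the same target, and with the inflated variance no pair of the map was called, En1 or other. In the other comparisons 0 of 682, 0 of 672 and 0 of 643 pairs were called (forelimb against forebrain, forelimb against midhindbrain, midhindbrain against forebrain), with 0.00681%, 0.0362% and 0.0122% called over the maps. The unadjusted exact binomial p was under 0.05 for 117 (17.2%), 95 (14.1%) and 104 (16.2%) En1 pairs in these comparisons, against 6.96%, 8.24% and 6.32% of all pairs. In the forelimb comparison it was so for 67 (9.37%), against 7.61%.

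The 2-fold limit decided these counts. Without it, 25 En1 pairs (3.67%) passed in forelimb against forebrain, 14 (2.08%) in forelimb against midhindbrain and 18 (2.80%) in midhindbrain against forebrain, where 0.169%, 0.283% and 0.115% of all pairs did. In the forelimb comparison it was still 1 En1 pair (0.140%), against 0.0408% of all pairs. With a limit of 1.5-fold 1, 9, 5 and 9 En1 pairs passed (stop-cassette over wild-type forelimb, forelimb over forebrain, forelimb over midhindbrain, midhindbrain over forebrain), against 0.0289%, 0.0613%, 0.169% and 0.0611% of all pairs. Dropping the limit was chosen after the calls were seen. The lowest adjusted p of forelimb against forebrain belonged to the first En1 bin with 123050001, at 388 against 836 contacts (exact binomial adjusted p = 8.3e-26, log2 ratio -0.99). The peak pair itself had 1523 against 2292 (exact binomial adjusted p = 2e-21, log2 ratio -0.50). In forelimb against midhindbrain the lowest was a pair next to the gene, the first En1 bin with 122540001, at 648 contacts against 941 (exact binomial adjusted p = 1.7e-13, log2 ratio -0.64). In midhindbrain against forebrain it was the second En1 bin with 123050001, at 345 against 711 (exact binomial adjusted p = 5.1e-15, log2 ratio -0.84).

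Across its 414 target bins the En1 profile (log2 of observed over expected) had a Pearson r of 0.909 between stop-cassette and wild-type forelimb, 0.905 between wild-type forelimb and forebrain, 0.911 between wild-type forelimb and midhindbrain and 0.900 between midhindbrain and forebrain. These are correlations across bins, which share the region and its balancing and are no replicates. The medians over 209 viewpoints were 0.584, 0.642, 0.603 and 0.645, and En1 ranked 1st, 3rd, 2nd and 6th from the highest. Over the 194 target bins from 30 kb to 1 Mb the values were 0.982, 0.974, 0.973 and 0.973. A correlation over a profile with so wide a range of levels does not measure the size of the differences. The median absolute log2 ratio over the En1 windows was 0.21, 0.21, 0.15 and 0.18 in the order of these comparisons, against 0.16, 0.13, 0.15 and 0.13 over all windows.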

How the data were processed

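Each group had 1 raw and 1 balanced map of 420 bins of 10 kb over chr1:120200001-124400000. As deposited, a raw map gives the count of contacts for every bin pair. As deposited, a balanced map gives the signal after Knight-Ruiz (KR) balancing, and it was checked that each raw count equals this signal times 1 factor per bin. Per the labels' file names, replicates were merged and HiCUP and a mapping quality of 30 were used. The submitters' processing notes name mm9, Bowtie2 2.3.4.1 and Juicer 1.7.6. Balancing gives all bins the same total, so a gain or loss by a whole bin is not seen.

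Python 3.11.15, numpy 2.4.6 and scipy 1.17.1 were used. Expected counts were the mean KR signal at a distance times both factors. Maps were compared by two-sided exact binomial tests on raw counts, with Benjamini-Hochberg adjustment over all 20 kb viewpoints by 50 kb windows (every contact enters through both ends), or over all bin pairs, with at least 20 contacts over both maps. Ratios used a prior count of 0.5 in these tests. Intervals were exact Poisson, Wilson, Newcombe or, for ratios, Clopper-Pearson. Read pairs are not independent molecules where duplicates remain, so intervals cover counting error only. The bin pair test and its intervals were tried on simulated Poisson counts for bin pairs with high expected counts. In the maps the variance of bin pairs was 1.25 to 1.43 times counting error. The simulation therefore does not show the rate of false calls in these data. Boundaries were minima of the insulation score with a 200 kb square and a depth of 0.2 (log2). Named targets were the 5 highest local maxima per map and up to 3 called windows per direction with the largest fold. Viewpoint, targets and tests were chosen with earlier results of these data known.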

Additional observations from a re-analysis of the deposited data

How the results depend on the processing

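No paired analysis was possible because the replicates of each group were merged before deposit, and no replicate could be left out for the same reason. Values below are in the order wild-type forelimb, forebrain, midhindbrain, stop-cassette forelimb, and the comparisons in the order stop-cassette over wild-type forelimb, forelimb over forebrain, forelimb over midhindbrain, midhindbrain over forebrain. Of 128 alternative values, 47 stayed within their interval, or within 1.5 times for counts, and 81 moved further. Bins at 3-fold or more over the expectation numbered 17, 16, 19 and 15, and at 1.5-fold forebrain had 63. The share inside the domain was 48.3%, 52.7%, 48.8% and 44.3% with the KR signal, 49.4%, 53.7%, 48.5% and 45.2% from 50 kb, and 55.6%, 60.4%, 55.6% and 53.0% up to 1 Mb. It was 49.5%, 55.0%, 50.4% and 45.8% for the first En1 bin alone, 54.5%, 58.4%, 54.7% and 50.1% for the second, and 42.7%, 41.6%, 41.9% and 39.7% with the far end moved in by 50 kb, where alone forelimb exceeded forebrain. The right share was 75.9%, 77.4%, 77.3% and 72.7% with the KR signal and 71.1%, 72.4%, 72.8% and 67.8% from 30 to 500 kb, and for the second bin alone 77.5% in forelimb and 79.5% in forebrain. En1 windows called without KR factors numbered 13 in the forelimb comparison and 7 in forelimb over midhindbrain, against 8 and 4, while the share over all windows was 7.97% and 5.51%, against 6.19% and 4.39%. With no minimum fold 18, 18, 19 and 17 were called (12.2%, 6.96%, 11% and 5.42% of all windows), and with a 1.5-fold minimum 1, 0, 0 and 1 (1.35%, 0.333%, 1.02% and 0.601%). With the inflated variance 0, 6 and 1 passed in the first 3 comparisons (0.0467%, 0.28% and 0.537% of all windows). The unadjusted exact binomial p was under 0.05 for 28 and 34 En1 windows in forelimb over midhindbrain and over forebrain (22.1% and 17.4% of all windows). Windows of 100 kb gave 5, 1 and 5 calls of 40 in the last 3 comparisons (2.72%, 6.3% and 3.87% of all). Within 1 Mb the forelimb comparison gave 2 calls of 38 (5.26%, against 9.46% of all), as 6 of its 8 lie further away. En1 bin pairs called without KR factors numbered 2 in the forelimb comparison and 3 in forelimb over forebrain (0.134% and 0.0272% of all pairs). At a 1.5-fold minimum they numbered 9, 5 and 9 in the last 3 comparisons, with no minimum, an alternative chosen after seeing the data, 25, 14 and 18, and with the inflated variance 0 in all 4. The profile correlation was 0.951, 0.942, 0.945 and 0.934 with 20 kb targets, 0.978, 0.970, 0.970 and 0.966 with 50 kb targets, 0.927, 0.925, 0.927 and 0.920 without KR factors, and 0.982, 0.974, 0.973 and 0.973 within 1 Mb. Apart from windows that lie outside a distance range or a larger set of bins counted, the cause of these moves was not tested. Depth limits the far left most. The lowest expected count of any target bin was 5.52 to 6.56 contacts, depending on the map.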
